A study of Mus musculus with 3 samples.

Results

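The genes that make, load, recapture and break down acetylcholine were followed across single cells of the mouse intrinsic cardiac ganglia, the nerve cell clusters on the atria. The 6 members were taken by symbol from the feature lists: Chat, Slc18a3, Slc5a7, Ache, Prima1 and Bche, out of 31064 features in the mixed library and 32285 in each of the anterior and posterior libraries. All 6 were present in all 3 lists. The mice carried Baf53b-cre;lox-GFP. Cre driven by the neuronal gene Baf53b (Actl6b) turns on a fluorescent label in this cross, and labelled cells were sorted from dissociated atria. Mice of both sexes were used: 2 months of age for the mixed library, from pooled ganglia, 3 months for the anterior library and 4 months for the posterior library. The protocol names 10 mice. Each group was 1 library, so region, library and labelled age cannot be told apart. The mixed library also had another feature list and, per its file header, another Cell Ranger version, which cannot be told apart from these either. Whether animals were shared between libraries is not given in the sources used here.

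Acetylcholine is made in the nerve ending from choline and acetyl-CoA by choline acetyltransferase (Chat). The vesicular acetylcholine transporter (Slc18a3) loads it into synaptic vesicles, and after release acetylcholinesterase (Ache) splits it, so that the high-affinity choline transporter (Slc5a7) can take the choline back up. Prima1 is the small membrane protein that anchors acetylcholinesterase at the cell surface of neurons, and butyrylcholinesterase (Bche) is a second enzyme able to split acetylcholine. In the heart, acetylcholine from these ganglia slows the pacemaker and atrioventricular conduction.

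Chat and Slc18a3 form the cholinergic gene locus, in which 1 gene is nested in the other. On GRCm38, Chat (ENSMUSG00000021919) lies at chr14:32408203-32465989 and Slc18a3 (ENSMUSG00000100241) at chr14:32462438-32464850, both on the minus strand. In 4 of the 8 annotated Chat transcripts Slc18a3 sits inside an intron, and no Chat exon overlaps it. Since the counting step can assign reads of overlapping genes on 1 strand to either or to neither, the values of these genes carry that uncertainty. Whether intronic reads were counted is not given in the sources used here. Antisense genes overlap the starts of Chat (Gm2990) and Ache (Gm42456). Whether counting used strand is not stated in these sources, so reads of these pairs may not be separated. The other members are Slc5a7 (ENSMUSG00000023945, chr17:54273590-54299034, minus strand), Ache (ENSMUSG00000023328, chr5:137287519-137294466, plus strand), Prima1 (ENSMUSG00000041669, chr12:103196908-103242150, minus strand) and Bche (ENSMUSG00000027792, chr3:73635808-73708415, minus strand). Ache and Bche are related enzymes, but none of the 50-base stretches in the last 300 bases of their transcripts was shared with another gene. Of such stretches in the Chat transcripts 0.596% were shared.

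The sequences before the starts of the 3 synthesis and transport genes are shown because these genes did not move together in the comparisons that follow. They are RefSeq promoter windows (GRCm38.p6), 5′ to 3′ on the gene's strand, 250 bases long except that the Chat window was shortened to the 170 bases before its outermost annotated start. Capitals mark the E-box letters CANNTG and the letters TGACG, the core of a cyclic AMP response element, on either strand. No marked motif overlaps another in these stretches.
Chat (chr14:32465990-32466159, minus strand): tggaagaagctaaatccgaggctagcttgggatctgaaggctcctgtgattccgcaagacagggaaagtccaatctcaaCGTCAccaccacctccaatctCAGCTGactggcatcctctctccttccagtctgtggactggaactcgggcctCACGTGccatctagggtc
Slc18a3 (chr14:32464851-32465100, minus strand): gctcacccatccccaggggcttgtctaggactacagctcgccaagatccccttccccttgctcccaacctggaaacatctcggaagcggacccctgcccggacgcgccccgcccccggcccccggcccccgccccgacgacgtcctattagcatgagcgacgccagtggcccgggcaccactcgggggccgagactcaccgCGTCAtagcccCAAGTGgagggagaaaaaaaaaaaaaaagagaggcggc
Slc5a7 (chr17:54299035-54299284, minus strand): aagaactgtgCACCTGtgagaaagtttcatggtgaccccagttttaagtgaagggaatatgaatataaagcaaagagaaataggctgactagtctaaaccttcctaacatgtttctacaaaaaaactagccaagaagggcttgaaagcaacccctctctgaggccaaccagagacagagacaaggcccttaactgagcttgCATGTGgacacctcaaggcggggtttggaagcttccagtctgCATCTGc
The Chat window held 2 E-box matches and 1 TGACG match, the Slc18a3 window 1 of each, and the Slc5a7 window 3 E-box matches and no TGACG match. Across all 32851 windows of 250 bases, 66.2% held an E-box match and 17.8% a TGACG match. The window of Slc18a3 contained 66.0% G and C, that of Slc5a7 45.6%, against a median of 52.4% over all windows. These matches are letters only and do not show a bound site.

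Of 8361 barcodes, 7091 passed the filters and 4728 were neurons, of which 1971 came from the mixed, 1314 from the anterior and 1443 from the posterior library. A neuron was a barcode with at least 10000 unique molecular identifiers (UMIs, counted mRNA molecules) and at least 1 UMI of each of Snap25, Prph and Stmn2. Median depth per neuron was 57355, 39858 and 57249 UMIs. Here and below, series of 3 values are for the mixed, anterior and posterior libraries in that order. The neurons were Npy-low (under 4 Npy UMIs per 10000) in 348, 123 and 510 cases. The libraries shared 8 barcode sequences in all. In 61 neuron barcodes, 55 of them posterior, the 3 gate genes together stood below 20 UMIs per 10000, against library medians of 103, 98.1 and 90.9 over all neurons. The 55 posterior ones carried 832 UMIs per 10000 of the immunoglobulin gene Igkc and 0.531 of Slc5a7, and 45 of them fell in the Npy-low class. Satellite glial RNA (at least 3 glial markers after thinning to 10000 UMIs) was present in 377, 162 and 157 neuron barcodes. The tests, the levels and the shares with all of Chat, Slc18a3 and Slc5a7 were recomputed without either kind, and the depth classes, the spread over neurons and the co-detection without those of low gate genes.

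All 6 genes were detected in neurons. Chat, Slc18a3, Slc5a7 and Ache stood far above their levels in glia, Prima1 was close to its level there, and Bche was lower than in glia. Levels are given as summed UMIs of a gene per 10000 UMIs of the class, which for a 3′ kit are not scaled by transcript length, so they are compared within a gene. Chat stood at 0.375, 0.330 and 0.431 per 10000, or 0.379 ± 0.0509 (SD, n = 3 libraries). Its posterior level was the highest and its anterior level the lowest, and their 95% counting intervals did not overlap. Slc18a3 stood at 4.63, 4.89 and 4.74 per 10000 (4.75 ± 0.133, SD, n = 3), the narrowest relative range among the 3 synthesis and transport genes. Slc5a7 stood at 8.34, 7.50 and 10.6 per 10000 (8.82 ± 1.62, SD, n = 3), with the posterior library highest, as for Chat.

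For the breakdown genes the order of the libraries was another one. Ache stood at 2.33, 3.16 and 2.84 per 10000 (2.78 ± 0.419, SD, n = 3), lowest in the mixed library. Prima1 stood at 0.223, 0.276 and 0.237 per 10000 (0.245 ± 0.0272, SD, n = 3). Bche was scarce, at 0.0624, 0.0709 and 0.0681 per 10000 (0.0671 ± 0.00432, SD, n = 3). The 3 libraries did not separate in Bche, whose counting intervals overlapped.

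**Figure D1:**
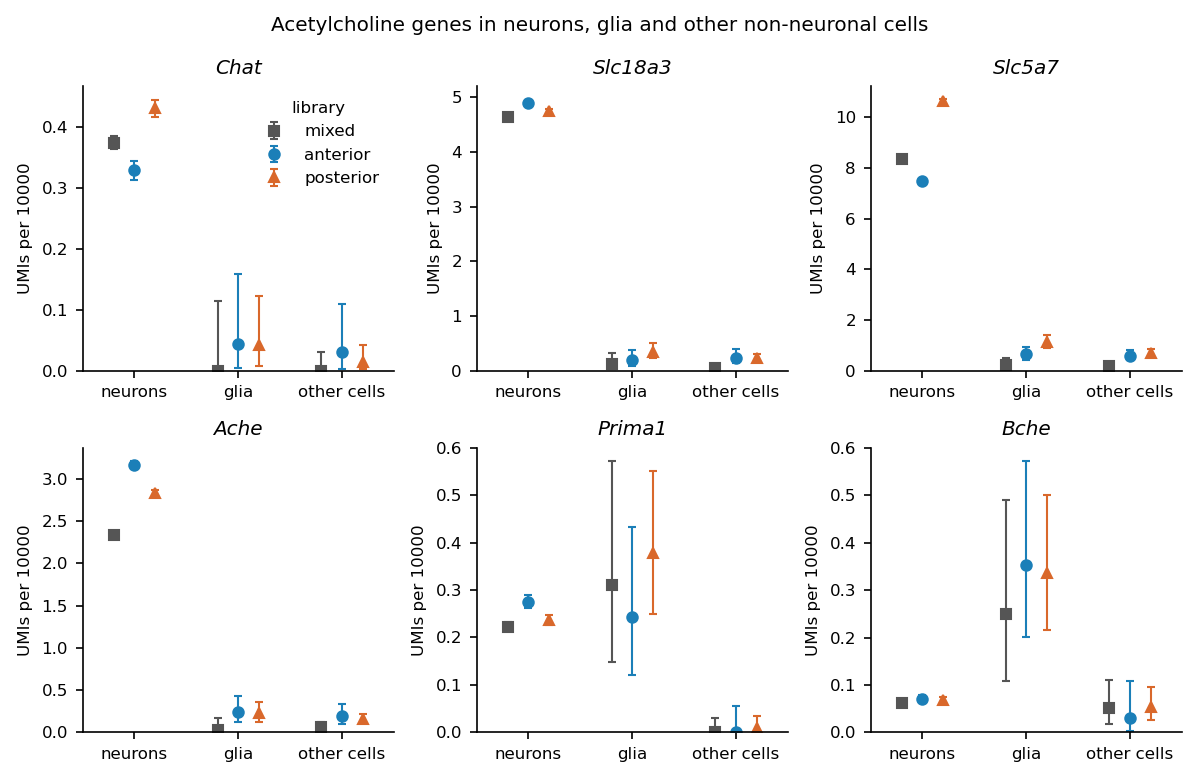
Summed UMIs per 10000 of each gene in neurons, marker-gated glia and the other marker-gated non-neuronal cells (cardiomyocytes and chromaffin-like cells left out), 1 point per library with its exact Poisson 95% interval. Chat, Slc18a3, Slc5a7 and Ache are high in neurons and low in both other plotted classes, and Prima1 is present in neurons and glia. Bche is highest in glia among the plotted classes, where the other cells are a pool.

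Glia carried the 2 cholinesterase-side genes Prima1 and Bche but little of the rest. Marker-gated satellite glia or Schwann cells, with at least 3 of 11 glial markers, more than of any other class and without all 3 neuron gate genes, numbered 87, 170 and 158. The gate itself therefore limited neuron RNA in these glia. These glia and the other non-neuronal cells came through a sort for the neuronal label, so they need not represent the tissue. All 11 glial markers were detected, with a summed level of 230, 138 and 156 per 10000 in glia against 5.14, 3.17 and 2.79 in neurons. Of the 6 members 5 differed from neurons, 4 higher in neurons and Bche lower, against 58.6% of 13645 genes tested (32.8% higher and 25.9% lower in neurons). The test was edgeR's quasi-likelihood test on UMIs summed per library and class, with library as block and a threshold of 0.05 on the adjusted p. The block takes out level differences between libraries, so the p-values set the class difference against its variation over these 3 libraries. That variation was estimated with information shared across genes.

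Slc18a3 was found at 0.124, 0.198 and 0.351 per 10000 in glia, Slc5a7 at 0.249, 0.661 and 1.15, and Ache at 0.0311, 0.242 and 0.225. All were far below neurons, with log2 fold changes of neurons over glia of 4.64 (SE 0.316, edgeR adjusted p = 8.00e-25), 4.04 (0.308, 8.74e-22) and 4.29 (0.316, 1.14e-22). In the pooled other non-neuronal cells Slc5a7 was at 0.177, 0.590 and 0.722 per 10000, also far below neurons. The neuron gate genes moved alongside, with 1.96, 5.15 and 6.09 per 10000 in glia. Chat had 0, 2 and 3 UMIs in glia. In the mixed library it was at least 4.02-fold higher in neurons, taking 3 UMIs in that library's glia as the floor, and in the others 7.48-fold (95% interval 2.07 to 61.8) and 10.2-fold (3.502 to 49.7) higher, with an edgeR adjusted p of 1.14e-12.

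Bche stood at 0.249, 0.352 and 0.337 per 10000 in glia, from 8, 16 and 24 UMIs, and was higher there than in neurons in 3 of 3 libraries. Its log2 fold change, neurons over glia, was -1.91 (SE 0.316, edgeR adjusted p = 1.20e-07). In the other non-neuronal cells as a pool Bche was at 0.0506, 0.0303 and 0.0537 per 10000, so glia stood 4.91-fold (95% interval 1.495 to 17.2), 11.6-fold (2.74 to 104.3) and 6.27-fold (2.96 to 14.2) above the pool. Within it, the 74, 21 and 30 smooth muscle cells or pericytes held Bche at 0.0815, 0.186 and 0.461 per 10000. The anterior value came from 2 UMIs. The posterior one was above posterior glia but inside the 95% counting interval of those glia, 0.216 to 0.501. Bche was thus not shown to be particular to glia. Prima1 stood at 0.311, 0.242 and 0.379 per 10000 in glia, from 10, 11 and 27 UMIs, close to its level in neurons. Its log2 fold change was -0.05 (SE 0.269, edgeR adjusted p = 0.891), and the sign turned without a filter (0.063) and without the posterior library (0.30). In the other non-neuronal cells Prima1 had 0, 0 and 2 UMIs, the last a level of 0.00976 per 10000. In that library glia stood 38.8-fold (9.75 to 336.8) higher. For Slc5a7 the same ratios of glia to other non-neuronal cells were 1.40 (0.538 to 3.30), 1.12 (0.671 to 1.85) and 1.59 (1.20 to 2.10). The pool left out cardiomyocytes and chromaffin-like cells. Marker-gated posterior cardiomyocytes (37 cells) held Chat at 0.343, Slc5a7 at 4.35 and Ache at 1.37 per 10000, with the neuron gate genes at 15.1. In the 38 anterior ones the values were 0.0624, 0.811 and 0.436, with gate genes at 4.99.

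Genes of each pathway list passed between neurons and glia, as did 58.6% of all genes. Of 21 choline and acetyl-CoA genes 7 were higher in neurons, led by the citrate carrier Slc25a1 (2.70) and Pemt (2.51), and 10 lower, led by Flvcr2 (-6.48) and the phospholipase Pld1 (-5.17). The list's median was -0.44 beside 0.21 over all genes. Of the 4 tested anchoring and cholinesterase-like genes, Colq (3.03) and Nlgn1 (0.88) were higher in neurons and Nlgn3 (-1.88) lower. Of 9 amine genes 6 were higher, led by Ddc (3.33) and Dbh (3.30), and the others did not pass, so that 66.7% of this list passed. Of 12 regulators 8 were higher, led by Phox2a (4.52) and Isl1 (4.12), which mark autonomic neurons, and 3 lower, led by the cytokine receptor subunits Il6st (-2.48) and Cntfr (-1.96). Without TMM factors the median of all genes moved from 0.21 to -0.11, and the called genes were then 3496 higher and 4238 lower in neurons, in place of 4471 and 3528. The directions of Chat, Slc18a3, Slc5a7, Ache and Bche were the same with and without these factors.

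Detection of all of Chat, Slc18a3 and Slc5a7 in 1 neuron was limited by Chat. The share of neurons with a UMI of all 3 was 82.6%, 62.6% and 77.2%, with exact Clopper-Pearson 95% intervals of 80.9 to 84.3, 59.9 to 65.2 and 74.9 to 79.3. Slc18a3 alone was detected in 99.7%, 99.4% and 95.4% of neurons and Slc5a7 in 99.9%, 99.6% and 97.5%, but Chat in only 82.7%, 62.9% and 78.0%. The anterior library, with the lowest share, was also the shallowest. When each neuron was thinned to 10000 UMIs, the shares with all 3 genes came to 33.0% (30.9 to 35.1), 27.2% (24.8 to 29.7) and 32.4% (29.95 to 34.8). The gap between libraries went from 20.1 to 5.81 percentage points, but all shares fell as well, which narrows any such gap. The anterior library kept the lowest share at 10000 UMIs. At that depth Slc18a3 was still found in 96.9%, 96.3% and 91.9% of neurons and Slc5a7 in 99.7%, 98.3% and 96.3%, while Chat was found in 33.7%, 28.2% and 34.2%. A neuron without a Chat UMI is thus not shown to lack Chat at this depth. Of the breakdown genes, Ache was found in 86.4%, 89.9% and 82.4% of thinned neurons, Prima1 in 18.9%, 22.5% and 20.1%, and Bche in 6.65%, 7.76% and 6.93%. With all UMIs these shares were 99.2%, 98.9% and 96.1% for Ache, 64.3%, 58.1% and 63.1% for Prima1, and 29.0%, 22.3% and 27.1% for Bche.

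The share with all 3 genes was lower in Npy-low than in Npy-high neurons of each library, with a posterior difference that rested on the barcodes of low gate genes. After thinning, it was 30.5%, 19.5% and 30.8% in Npy-low and 33.5%, 28.0% and 33.2% in Npy-high neurons, and the exact 95% intervals of the classes overlapped in each library. With all UMIs it was 79.0%, 60.2% and 73.1% against 83.4%, 62.8% and 79.4%. Without the barcodes of low gate genes the posterior shares were 80.2% in Npy-low and 80.3% in Npy-high neurons with all UMIs, and 33.8% and 33.6% after thinning, so the posterior direction was lost.

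Neurons without any of the 3 genes were few. They numbered 2 of 1971, 1 of 1314 and 28 of 1443 with all UMIs. Of the 28 posterior ones, 3 remained when barcodes with low gate genes were left out, and the posterior share with all 3 genes was then 80.3% (78.1 to 82.3). In glia the share with all 3 genes was 0 of 65, 0 of 85 and 0 of 121 cells after thinning to 2000 UMIs, which allows shares of up to 4.62%, 3.53% and 2.48% by taking 3 cells of the total as the limit. In neurons thinned to the same depth the shares were 3.65%, 2.74% and 4.23%, so only the posterior share lay above what the glial count allows. At least 1 of the 3 genes was found in 92.3%, 90.03% and 88.4% of neurons at 2000 UMIs, against 9.23%, 8.24% and 30.6% of glia, which counts any free RNA in the droplets. Median depths before thinning were 3105, 2031.5 and 3728 UMIs in glia.

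**Figure D2:**
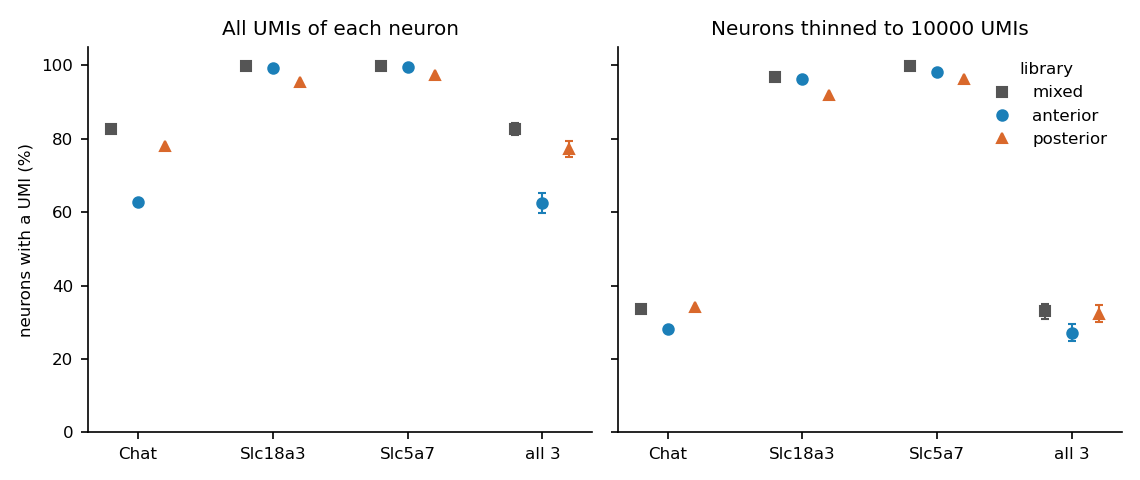
Share of neurons with at least 1 UMI of Chat, Slc18a3, Slc5a7 and of all 3 together, per library, with all UMIs (left) and after thinning to 10000 UMIs (right); bars on the last column are exact Clopper-Pearson 95% intervals. The share with all 3 follows the share with Chat in each library.

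Chat was highest in the shallowest neurons of all 3 libraries, and Slc5a7 in those of the mixed and anterior libraries. In the mixed library Chat fell from 0.756 per 10000 in the 87 neurons with 10000 to 20000 UMIs to 0.292 in the 330 neurons with at least 80000 UMIs, and Slc5a7 from 14.8 to 7.30. In the anterior library Chat went from 0.622 to 0.271 and Slc5a7 from 9.46 to 6.52, where the deepest class held 25 neurons. In the posterior library Chat went from 0.735 to 0.355, whereas Slc5a7 was highest between 20000 and 40000 UMIs, at 13.6, against 9.37 below 20000 UMIs. Of the 160 posterior barcodes below 20000 UMIs, 45 had low gate genes. Without barcodes of that kind, Slc5a7 stood at 12.4 below 20000 UMIs and 14.1 in the next class, and Chat went from 0.976 to 0.357. Bche went from 0.112 to 0.0386 in the mixed library. Prima1 showed no such fall and lay between 0.199 and 0.333 per 10000 in all 4 depth classes of the 3 libraries. These are descriptions of the libraries without a test.

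**Figure D3:**
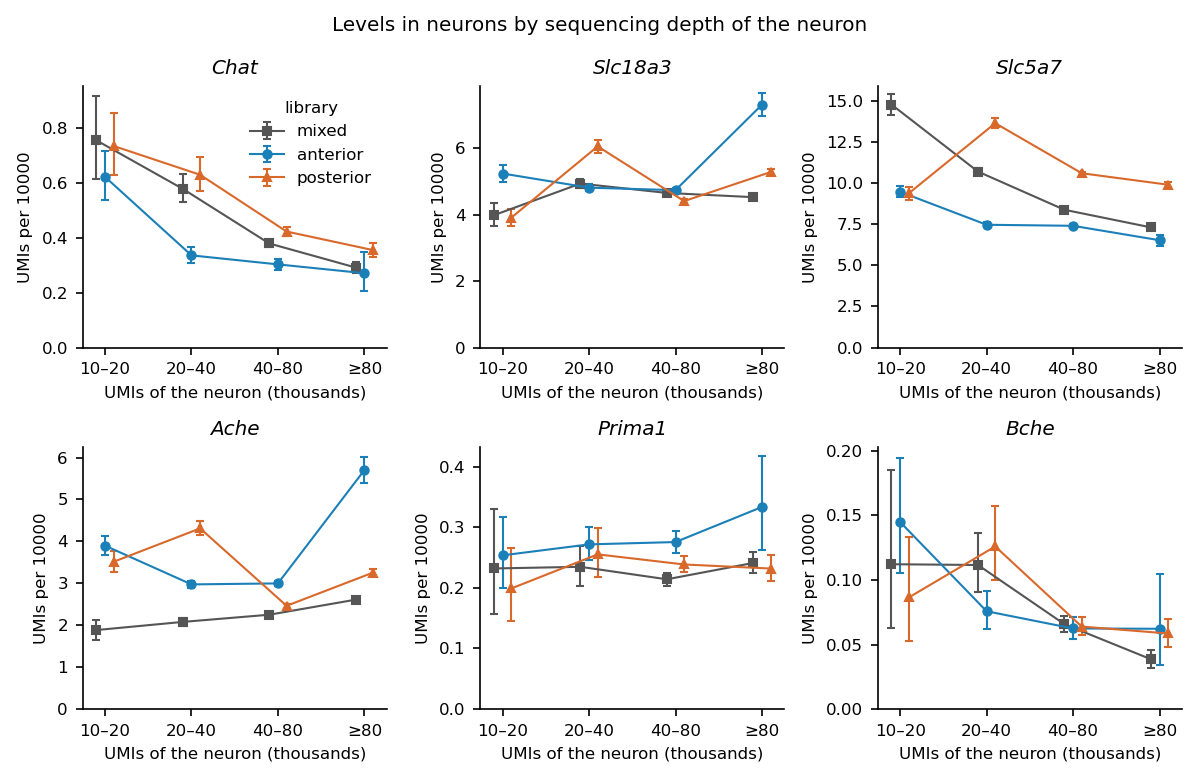
Summed UMIs per 10000 of each gene by the total UMIs of the neuron, 1 line per library, with exact Poisson 95% intervals. Chat falls from left to right in all 3 libraries, from 0.756 to 0.292 in the mixed library, while Prima1 lies between 0.199 and 0.333.

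The members varied between neurons of 1 library. After thinning to 10000 UMIs the variance of Slc5a7 counts over their mean was 2.93, 3.82 and 4.94, where counting error alone gives a value near 1. For Slc18a3 this ratio was 1.65, 2.11 and 2.94, for Ache 1.34, 2.32 and 2.95, and for Chat 1.16, 1.19 and 1.37. This ratio rises with the level of a gene, so it does not rank them. The highest decile over the lowest was 2.69, 4.67 and 5.35 for Slc5a7, 3.12, 4.33 and 6.81 for Slc18a3, and 4.35, 7.15 and 9.31 for Ache. Without the barcodes of low gate genes the posterior values were 4.36, 5.38 and 7.61. Decile ratios include counting error, which weighs more at lower levels, so they do not rank the genes either. The variance beyond the mean, divided by the squared mean, allows for that error. Over all neurons it was 0.216, 0.362 and 0.366 for Slc5a7, 0.140, 0.231 and 0.412 for Slc18a3, and 0.147, 0.404 and 0.656 for Ache. Its posterior values were 0.320, 0.361 and 0.606, in the same gene order, without the barcodes of low gate genes. The central range of Slc5a7 per neuron, from the lowest to the highest decile, spanned 5.02 to 13.5, 3.02 to 14.1 and 3.72 to 19.9 per 10000. Across neurons the members went together to a degree that differed between libraries. Pearson's r of log levels between Slc18a3 and Ache was 0.178, 0.256 and 0.471, and between Slc18a3 and Slc5a7 0.0250, 0.122 and 0.405. Without the barcodes of low gate genes the 2 posterior values were 0.421 and 0.256. These r are descriptions over the 1971, 1314 and 1443 neurons, which share their library and its depth.

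The genes most like each member across neurons, by the lowest of the 3 within-library r among 10396 genes, formed different groups for the 2 transporters. Slc5a7 was most like Map1b, Ank2, Syt11, 2900097C17Rik and Chl1, with lowest r from 0.590 to 0.673. Map1b binds microtubules, Ank2 is an ankyrin of the membrane skeleton and Chl1 a cell adhesion molecule. Slc18a3 was most like the tubulin genes Tuba1a, Tubb2a, Tubb4b and Tubb3 and the glycolytic gene Pkm, with lowest r from 0.461 to 0.540. Ache was most like Atp5b, Lgmn, Tubb2a, Pkm and Atp6ap2, with lowest r from 0.464 to 0.541. Tubb2a and Pkm were on both of the last lists. Without the barcodes of glial RNA or low gate genes, Tkt replaced Pkm on the Ache list. Ntrk3 and Mfsd6 then replaced 2900097C17Rik and Chl1 on that of Slc5a7, and the Slc18a3 list kept its genes. For Chat the first was App, with a lowest r of 0.355. For Prima1 and Bche no lowest r exceeded 0.169, and with counts this sparse no likeness is read from them.

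Between Npy-low and Npy-high neurons the members went in both directions. Npy-low neurons had less Slc18a3, Ache and Bche and more Slc5a7 and Prima1, and Chat did not pass. Of the 6 members 5 passed at an adjusted p of 0.05, against 26.5% of the 13885 genes tested (12.5% higher and 13.9% lower in Npy-low neurons). The test was the same.

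Slc18a3, the vesicle loader, stood at 3.74, 4.31 and 3.53 per 10000 in Npy-low neurons and at 4.81, 4.95 and 5.34 in Npy-high neurons. The groups did not overlap, and Npy-low was lower in 3 of 3 libraries, with a log2 fold change of -0.43 (SE 0.0649, edgeR adjusted p = 8.63e-04). Slc5a7, the choline transporter, stood at 10.5, 8.18 and 11.1 per 10000 in Npy-low neurons and at 7.88, 7.43 and 10.4 in Npy-high neurons. Here Npy-low was higher in each library, although the ranges overlapped, with a log2 fold change of 0.18 (SE 0.0558, edgeR adjusted p = 0.0345). That call was lost when either the mixed library (adjusted p = 0.155, log2 fold change 0.09) or the anterior library (adjusted p = 0.155) was left out. Chat stood at 0.353, 0.291 and 0.408 per 10000 in Npy-low and at 0.380, 0.334 and 0.443 in Npy-high neurons. Its log2 fold change of -0.17 (SE 0.0558) did not pass (edgeR adjusted p = 0.0530), although it did with an Npy limit of 2 (0.0493), with no filter (0.0148) and without the highest doublet scores (0.0410).

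Bche had the largest fold change of the 6 members between these classes. Its level was 0.0302, 0.0308 and 0.0333 per 10000 in Npy-low neurons, from 61, 15 and 90 UMIs, and 0.0693, 0.0751 and 0.0856 in Npy-high neurons. The groups did not overlap, and the log2 fold change was -1.32 (SE 0.117, edgeR adjusted p = 2.47e-05). Prima1, the anchor, went the other way. It stood at 0.301, 0.349 and 0.287 per 10000 in Npy-low and at 0.207, 0.268 and 0.212 in Npy-high neurons, again without overlap, with a log2 fold change of 0.43 (SE 0.0599, edgeR adjusted p = 4.96e-04). Ache itself stood at 2.27, 2.71 and 2.28 per 10000 in Npy-low and at 2.34, 3.21 and 3.12 in Npy-high neurons. Its log2 fold change was -0.28 (SE 0.0633, edgeR adjusted p = 0.00840), a call lost without the anterior library (adjusted p = 0.0873). Without the barcodes of low gate genes the same 5 members passed, with adjusted p from 7.48e-07 to 0.00835. With no library block, of the members only Bche passed (adjusted p = 0.00441), and the others had adjusted p from 0.253 to 0.919. Leaving out neurons with glial RNA kept the same 5 calls.

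Genes of the pathway lists went in both directions as well, to be read against the 26.5% of all genes that passed. Of the 20 tested genes for choline and acetyl-CoA supply, 3 were higher and 4 lower in Npy-low neurons, which is 35.0% of them, with a median log2 fold change of 0.02 beside -0.0015 over all genes. Pcyt1b (0.32) and Chpt1 (0.28) of phosphatidylcholine synthesis were the highest and Cept1 (-0.33) and Pcyt1a (-0.30), of the same pathway, the lowest. Of 4 tested anchoring and cholinesterase-like genes, Nlgn1, a neuroligin, rose (1.29) and Colq, the collagen tail of acetylcholinesterase, fell (-0.42). Of 9 amine genes 2 were higher and 6 lower. Dbh, the noradrenaline enzyme (1.88), and the vesicular amine transporter Slc18a1 (1.16) were higher, and the vesicular amine transporter Slc18a2 (-2.57) and Gch1 of cofactor synthesis (-2.36) lower. Of 13 regulators and trophic receptors 4 were higher, led by Gfra2 (0.70) and Lifr (0.47), and 5 lower, led by the receptor tyrosine kinase Ret (-1.50) and the transcription factor Hand2 (-1.32).

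**Figure D4:**
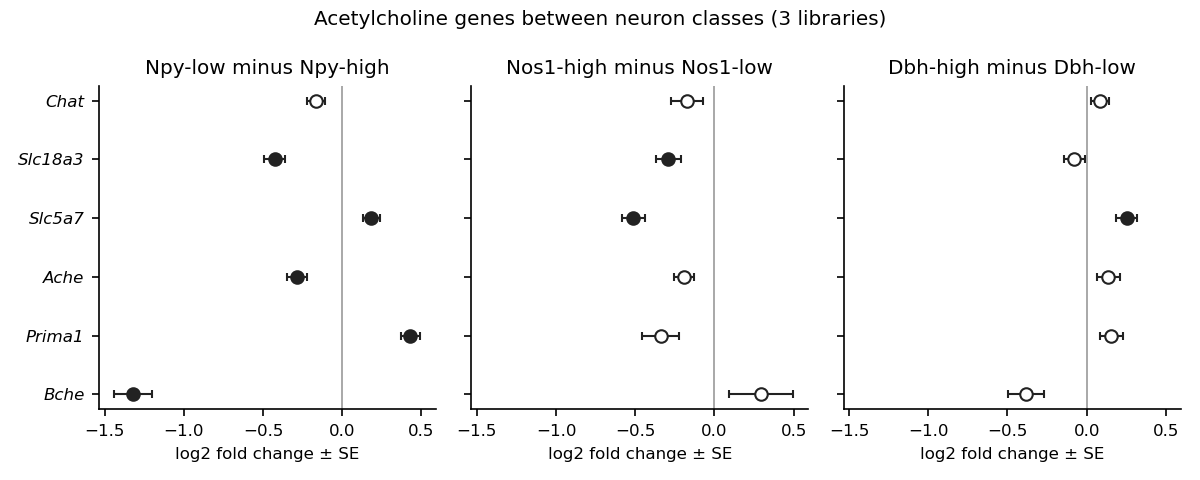
Fitted log2 fold change of each gene with its SE between 3 pairs of neuron classes, from UMIs summed per library and class in 3 libraries. Filled points passed an edgeR adjusted p of 0.05: 5 genes for Npy, 2 for Nos1 and 1 for Dbh.

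Neurons with Nos1, the neuronal nitric oxide synthase, had less of the 2 transporters as a class, with the lower levels in those that also had Vip. Nos1-high neurons (at least 1 UMI per 10000) numbered 55, 84 and 61. Of the 6 members 2 passed, both lower in Nos1-high neurons, against 12.1% of 13271 genes tested (5.93% higher and 6.16% lower). Slc5a7 stood at 6.68, 4.49 and 8.45 per 10000 in Nos1-high and at 8.37, 7.66 and 10.7 in Nos1-low neurons. It was lower in 3 of 3 libraries, with a log2 fold change of -0.51 (SE 0.0715, edgeR adjusted p = 1.69e-04), while the ranges overlapped. Slc18a3 stood at 4.10, 3.37 and 4.62 per 10000 in Nos1-high and at 4.64, 4.98 and 4.74 in Nos1-low neurons, with a log2 fold change of -0.29 (SE 0.0793, edgeR adjusted p = 0.0248). The groups were separated only by 4.62 against 4.64, and the posterior ratio was 0.974 (0.923 to 1.03). The Slc18a3 call was lost without the mixed library (adjusted p = 0.120), without the anterior library (adjusted p = 0.274) and without TMM factors (adjusted p = 0.0546). With no library block neither gene passed (adjusted p = 0.604 for Slc5a7 and 0.769 for Slc18a3).

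The other 4 members did not pass. Log2 fold changes were -0.19 for Ache (edgeR adjusted p = 0.0610), -0.34 for Prima1 (0.0744), -0.17 for Chat (0.339) and 0.29 for Bche (0.423). With a limit of 2 Nos1 UMIs per 10000, Chat passed at -0.46 (edgeR adjusted p = 0.00837) and Ache at -0.22 (0.0360). Without the barcodes of low gate genes Ache passed as well, at -0.20 (0.0356). Nos1-high neurons were shallower than the rest, with median UMIs of 45938, 33730 and 50422 against 57648, 40378 and 57688. The part of depth in these differences was not tested.

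Among Nos1-high neurons the levels were lower in those that also had Vip, the gene of vasoactive intestinal peptide, a split chosen after the values were seen and given without a test. In the 23, 61 and 23 neurons with at least 1 UMI per 10000 of both, Slc18a3 stood at 2.62, 2.84 and 3.49, Slc5a7 at 4.26, 3.54 and 4.57 and Chat at 0.196, 0.208 and 0.211 per 10000. In the 32, 23 and 38 Nos1-high neurons below that Vip limit Slc18a3 stood at 4.97, 4.63 and 5.13, Slc5a7 at 8.11, 6.73 and 10.2 and Chat at 0.516, 0.401 and 0.456. In each library all 3 genes were thus lower with Vip. Set beside Nos1-low neurons (4.64, 4.98 and 4.74), the Vip-low members had more Slc18a3 in the mixed and posterior libraries and less in the anterior one. Their Slc5a7 was closer to the 8.37, 7.66 and 10.7 of Nos1-low neurons. No barcode of low gate genes was Nos1-high. Ache did not share the pattern, with 2.04, 2.89 and 3.53 per 10000 with Vip and 2.07, 2.37 and 2.34 without. Median depths were 41975, 33762 and 46142 UMIs with Vip and 51204, 33697 and 56043 without. Chat was also low with Vip outside the Nos1-high class. In the 26, 15 and 26 Nos1-low neurons at or above the Vip limit it lay between 0.226 and 0.291 per 10000. Nos1-low neurons below that limit had Chat between 0.334 and 0.439. The ranges of Slc18a3 and Slc5a7 overlapped between these classes.

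**Figure D5:**
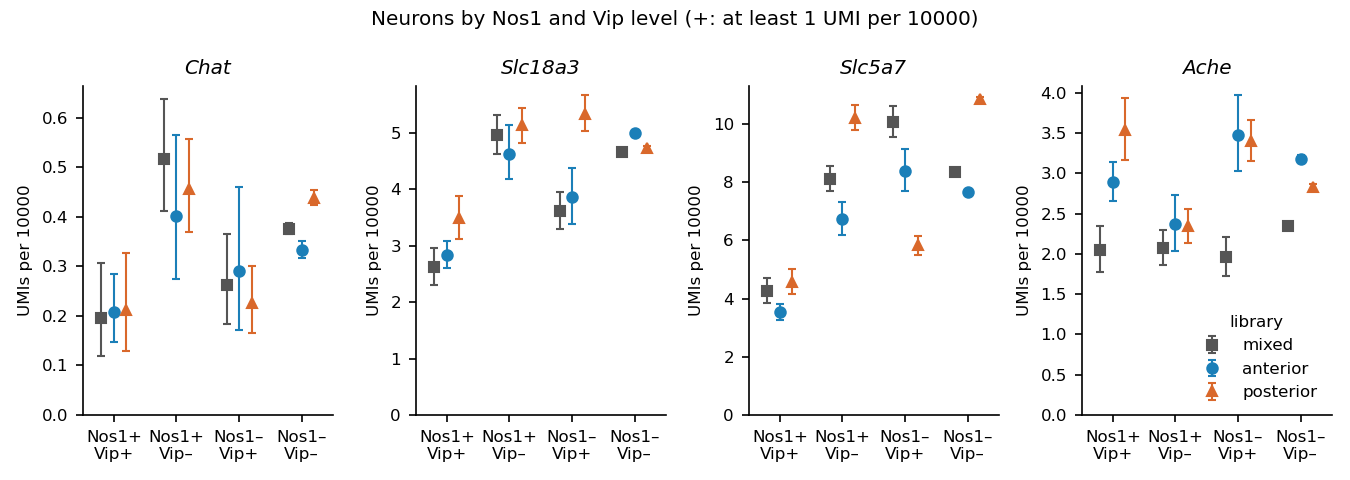
Summed UMIs per 10000 of Chat, Slc18a3, Slc5a7 and Ache in neurons split by Nos1 and Vip at 1 UMI per 10000 (+ at or above, – below), 1 point per library with its exact Poisson 95% interval. The 3 synthesis and transport genes have their lowest point in each library where both Nos1 and Vip are present, with posterior Chat at 0.211 there and 0.226 with Vip alone.

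The pathway lists were read against the 12.1% of all genes that passed. Of 20 choline and acetyl-CoA genes 1 was higher in Nos1-high neurons, the choline transporter-like Slc44a5 (0.47), and 3 were lower, led by Acly (-0.67) and Acss2 (-0.40), both of which make acetyl-CoA, so 4 of 20 passed. The list's median was -0.03 beside -0.02 over all genes. Of the other lists, 2 of 4, 5 of 9 and 11 of 13 genes passed. Among the anchoring and cholinesterase-like genes Colq (-0.94) and Nlgn1 (-0.60) were lower. Of 9 amine genes 2 were higher, Slc18a2 (6.14) and Gch1 (1.00), and 3 lower, led by Ddc (-1.07) and Th (-1.04). Of 13 regulators 6 were higher, the transcription factor gene Gata2 (0.56) among them. The 5 lower ones were led by the transcription factor Isl1 (-1.13) and the neurotrophin receptor Ntrk3 (-0.65).

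Slc18a3 and Chat were found together with the noradrenaline genes Th and Dbh in the same barcodes. A Th UMI was found in 11.7%, 13.7% and 11.8% of neurons thinned to 2000 UMIs and in 0%, 3.53% and 1.65% of glia, and a Dbh UMI in 9.49%, 10.5% and 16.8% of neurons and 0%, 2.35% and 2.48% of glia. For Slc18a3 the shares were 58.8%, 57.8% and 54.96% of neurons and 3.08%, 1.18% and 11.6% of glia. After thinning to 10000 UMIs, Slc18a3 was found in 98.1%, 97.7% and 94.99% of neurons with a Th UMI, against 96.2%, 95.5% and 89.9% of those without. It was found in 95.9%, 95.8% and 94.3% of neurons with a Dbh UMI and in 97.2%, 96.6% and 89.7% of those without. Without the barcodes of low gate genes the posterior shares were 95.1% with Dbh and 95.2% without, and 96.5% with Th and 94.3% without. Since Slc18a3 was found in 96.9%, 96.3% and 91.9% of all neurons at that depth, high shares beside any gene were given in advance. With all neurons kept, Chat was found in 33.5%, 31.2% and 36.9% of those with Th and 33.9%, 26.3% and 32.6% of those without. For Dbh the Chat shares were 35.8%, 30.1% and 36.5% with it and 33.0%, 27.4% and 32.2% without. The exact 95% intervals for Chat with and without overlapped in each library. Dbh-high neurons (at least 1 UMI per 10000) numbered 388, 281 and 563. Of the 6 members only Slc5a7 passed between Dbh-high and Dbh-low neurons, against 9.93% of 13781 genes tested (5.44% higher and 4.48% lower). It stood at 9.71, 9.16 and 11.7 per 10000 in Dbh-high and at 8.001, 7.03 and 9.86 in Dbh-low neurons, higher in 3 of 3 libraries with overlapping ranges, and its log2 fold change was 0.25 (SE 0.0658, edgeR adjusted p = 0.0378). The call was lost without the mixed library (adjusted p = 0.384), without the posterior library (adjusted p = 0.332) and with no library block (adjusted p = 1.00), while the log2 fold change stayed between 0.24 and 0.26 when 1 library was left out. Without TMM factors the genes called were 950 higher and 396 lower in Dbh-high neurons, in place of 750 and 618. The other 5 lay between -0.38 for Bche (edgeR adjusted p = 0.0628) and 0.15 for Prima1 (0.206). Slc18a3 went in opposite directions: the ratio of Dbh-high to Dbh-low was 0.912, 1.10 and 0.945, above 1 for the anterior library alone. Without the anterior library, Slc18a3 passed as lower (-0.13, edgeR adjusted p = 0.00456), Bche as lower (-0.48, 0.00474) and Prima1 as higher (0.23, 0.00685).

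Of 20 choline and acetyl-CoA genes 2 were higher in Dbh-high neurons, Pnpla6 (0.33) and the choline transporter Slc44a1 (0.28), and the others did not pass. That is 10.0% of the list, against 9.93% of all genes. Of the 4 anchoring and cholinesterase-like genes, Nlgn1 (0.77) and Nlgn3 (0.28) were higher. Of 9 amine genes 3 were higher, Dbh by the definition of the class and Slc18a1 (0.73) among them, and 3 lower, led by Slc18a2 (-1.53) and the monoamine oxidase Maob (-0.70). Slc18a2 did not pass without the barcodes of low gate genes (adjusted p = 0.0724). Of 13 regulators 4 were higher, led by Gfra2 (0.59) and Ntrk3 (0.41), and 2 lower, Hand2 (-0.52) and Phox2a (-0.29).

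Anterior and posterior neurons were compared as ratios of 2 libraries with no replicate check. None of the 6 members reached a 1.5-fold difference, which 1.87% of 8243 genes did. Those genes had at least 0.1 UMIs per 10000 in either library, a minimum that Bche did not reach. Anterior over posterior, Slc5a7 was 0.706 (95% interval 0.698 to 0.715) and Chat 0.764 (0.721 to 0.810), both lower in the anterior library. Ache was 1.11 (1.09 to 1.14) and Prima1 1.16 (1.09 to 1.25), both higher, while Slc18a3 was 1.03 (1.02 to 1.05) and Bche 1.04 (0.911 to 1.19). The classes were unequally represented, since 9.36% of anterior and 35.3% of posterior neurons were Npy-low. Within Npy-high neurons Slc18a3 was 0.927 (0.911 to 0.943), and within Npy-low neurons 1.22 (1.16 to 1.28). For Slc5a7 the ratio was 0.716 within Npy-high and 0.736 within Npy-low neurons, and for Chat 0.753 and 0.714, so these held in both classes. Intervals cover counting error only.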

How the data were processed

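Single-cell 3′ RNA-seq libraries (1 mixed, 1 anterior, 1 posterior) were analysed. The deposited matrices hold raw UMI counts, with no normalization. Per the file headers, they were written by Cell Ranger 3.1.0 (mixed) and 6.1.2 (anterior, posterior). The submitters' processing notes name Cell Ranger 7.1.0, Seurat 4.4.2 and mm10. The mixed list holds 11 added sequences. Total depths were 119825307, 55329380 and 86391988 UMIs.

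Barcodes with at least 1000 UMIs, 500 genes and at most 20% mitochondrial UMIs were kept. Scrublet (scanpy 1.11.5) marked 22 of 7091 (0.310%) and so did not work as a doublet filter. An alternative removed the 3% with the highest scores. UMIs were summed per library and class and tested with edgeR 4.0.16 (R 4.3.3), TMM factors and filterByExpr, with Benjamini-Hochberg adjustment over all genes tested. Library was a block because both classes of a library come from the same animals and channel. Scripts were tested on simulated data. Intervals (exact Poisson, Clopper-Pearson, conditional Poisson) are 95% and cover counting error only. Alternatives included DESeq2 1.42.0, other limits and leaving out each library.

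All 6 members are named throughout. Of each gene list up to 4 genes per comparison are named, the 2 highest and 2 lowest past the threshold. A result for 1 listed gene is not reported here. Likeness was ranked over genes found in at least 10% of neurons. The members and lists were chosen with earlier results of these data known. Leaving out neurons with low gate genes, and requiring 5 glial markers, were chosen after seeing the data. Promoter windows of all 6 members were matched by symbol in RefSeq. Gene positions are from GENCODE vM21 (GRCm38).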

Additional observations from a re-analysis of the deposited data

Results flagged for a closer look

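Slc18a3 had opposite directions in different libraries or classes, with counting intervals that left out a ratio of 1 on both sides. Dbh-high over Dbh-low neurons, its ratio was 1.10 (1.06 to 1.13) in the anterior library and 0.912 (0.892 to 0.932) and 0.945 (0.926 to 0.965) in the mixed and posterior libraries. Anterior over posterior, its ratio was 0.927 (0.911 to 0.943) within Npy-high neurons and 1.22 (1.16 to 1.28) within Npy-low neurons. Neither difference was tested, since each library is 1 sample.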

How the results depend on the processing

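With no library block, calls fell to 631 genes for Npy, 261 for Nos1 and 1 for Dbh (from 3673, 1604 and 1368), and the neuron against glia count stayed within 1.5 times. For Dbh, DESeq2 called 815 genes, a limit of 2 called 2165 and no filter called 2278. Leaving out 1 library gave 1018 to 1352 calls for Nos1, the lowest without the mixed library, and 771 to 3034 for Dbh, the lowest without the posterior and the highest without the anterior library. Prima1 between neurons and glia turned sign without a filter (0.063) and without 1 library (-0.24 to 0.30).

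The share of neurons with Chat, Slc18a3 and Slc5a7 moved to 33.0%, 27.2% and 32.4% after thinning to 10000 UMIs. It was 84.4% in the mixed library without neurons carrying glial RNA, 82.1% in the posterior library at 20000 UMIs or more and 80.3% there without barcodes of low gate genes. As a mean of per-cell values Bche was 0.0767 per 10000. Genes past 1.5-fold between the regions numbered 291 as means of per-cell values, 43 within Npy-high and 324 within Npy-low neurons, from 154. The causes were not tested. Of 78 recomputed member values for Npy, 68 kept their direction and side of the threshold, of 72 for Nos1 59, of 72 for Dbh 65 and of 72 for glia 70. Depth limits the detection of Chat, Prima1 and Bche, each found in at most 34.2% of thinned neurons of a library.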

Other observations

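Barcodes with the 3 neuron gate genes but under 10000 UMIs entered no comparison. They numbered 73, 279 and 517 in the mixed, anterior and posterior libraries, with median UMIs of 6161, 5571 and 2467. Their levels of Chat were 0.592, 1.03 and 0.579 per 10000 and of Slc5a7 15.2, 8.09 and 9.07, while Slc18a3 stood at 2.87, 4.27 and 3.02.

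Chromaffin-like cells (small intensely fluorescent cells), gated by at least 3 amine and granin markers, numbered 18, 12 and 14 and lacked Pnmt. They held Ache at 1.22, 1.19 and 4.07 per 10000, from 17, 10 and 16 UMIs, and Slc18a3 at 0.0718, 0.476 and 5.09. Slc5a7 stood at 0.287, 0.952 and 9.93 and Chat at 0, 0.357 and 0.255 per 10000. The neuron gate genes stood at 9.26, 8.93 and 38.2 per 10000 in the same cells, highest in the posterior library. Their part in the Ache level was not tested. In the posterior library Slc18a3 and Slc5a7 were close to their neuron levels of 4.74 and 10.6 per 10000. The name chromaffin-like is thus uncertain for those 14 barcodes. In all 3 libraries the chromaffin-like cells had 0 UMIs of Prima1 and Bche. In the 12 anterior ones 3 UMIs would be 0.357 per 10000, above the anterior neuron levels of Prima1 (0.276) and Bche (0.0709). The counts of 0 therefore do not show absence.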
